A study of Mus musculus with 6 samples.

Results

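The genes described here are 36 genes of fatty acid oxidation, taken by gene symbol from the 28789 genes of the table that compares YOD1 with control libraries. They were measured by RNA-seq in TCMK1 cells, a line of mouse renal tubular epithelium. In the 3 YOD1 libraries the cells overexpressed the OTU-family deubiquitinase YOD1 and received angiotensin II (Ang II). In the 3 control libraries the cells had the control genotype and also received Ang II, so both groups share that treatment and no library lacks it. The dose and duration of Ang II, the vector that carried YOD1 and the origin of each replicate (separate cultures or not) are not given in the sources used here, so the p-values cover only the spread between these libraries, which may be technical. The series gives its purpose as finding pathways that YOD1 acts on in such cells.

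Mitochondria oxidise long-chain fatty acids only after the carnitine shuttle has brought them across the inner membrane. CPT1 at the outer membrane joins the acyl group to carnitine, a translocase carries the product inward, and CPT2 returns the acyl group to coenzyme A. Each turn of the spiral that follows uses an acyl-CoA dehydrogenase, a hydratase, a hydroxyacyl-CoA dehydrogenase and a thiolase, while peroxisomes shorten very long and branched chains by a parallel route. PPAR receptors and the coactivator PGC-1 drive transcription of these genes. Renal tubule cells draw much of their ATP from this pathway, and lower levels of its genes have been described in fibrotic kidneys.

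Values are FPKM, fragment counts that the authors scaled to transcript length and library size before depositing them. Genes that reached 1 FPKM in 3 or more of the 6 libraries were tested with limma on log2(FPKM + 1), which left 11483 genes and 31 of the 36 members. The fold changes below are differences of log2(FPKM + 1), YOD1 minus control, and they understate the change of low genes. Acad11, Ehhadh, Ppara, Ppargc1a and Ppargc1b did not reach the filter and were not tested. Over all tested genes, 4 passed an adjusted p of 0.05 in the lower direction (0.0348%) and 51 in the higher direction (0.444%).

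Read depth is unknown from FPKM. Summed over genes, FPKM came to 326137 to 352209 in YOD1 libraries and 314172 to 320924 in controls, with 22045 to 23374 genes above 0 in each of the 6. Yod1 itself had 1.73, 7.56 and 1.86 FPKM in YOD1 libraries 1 to 3, against 0.842, 0.757 and 0.684 FPKM in the controls. The groups did not overlap, but the change did not pass over all genes (log2 fold change 1.21, SE 0.37, limma adjusted p = 0.141). The authors' deposited table marks Yod1 as higher, with a log2 ratio of 2.29 and q = 0.0310. The sources used here do not give the species of the YOD1 sequence that was introduced. YOD1 library 3 lay farthest out on the first principal component, and the 18S rRNA-derived transcript Rn18s-rs5 took 2.17% to 3.90% of the FPKM sum in YOD1 libraries, against 0.421% to 0.733% in controls. The part of the rRNA-derived share in the results below was not tested, and values without YOD1 library 3 are given beside several results. Of 12 markers of renal epithelium all reached 1 FPKM in at least 1 library, among them Krt18, Cdh16 and Epcam. Of 13 proximal tubule markers 5 did, among them Lrp2, Aqp1, Gatm and Pax8, while Slc34a1, Slc5a2, Slc22a6, Cubn and Hnf4a stayed at or near 0. The labels' protocol speaks of an adipose source, but 2 of 12 adipocyte markers reached 1 FPKM (Lipe and Pparg), and Plin1 and Lep stayed under 0.1 FPKM in every library. Summed adipocyte markers were 3.21 to 3.84 FPKM in YOD1 libraries and 3.74 to 4.38 FPKM in controls. Of fibroblast markers 4 of 8 reached 1 FPKM, of leukocyte markers 3 of 8 (Cd68, Csf1r and Lyz2), and of endothelial markers 0 of 6.

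The carnitine shuttle held the member that changed. Cpt1a (ENSMUSG00000024900), the liver-type carnitine palmitoyltransferase and the step at which mitochondrial oxidation of long chains is controlled, had 9.60, 10.3 and 8.23 FPKM in the YOD1 libraries, against 18.2, 22.2 and 19.4 FPKM in the controls. Every YOD1 library lay below every control, and the highest YOD1 value was far from the lowest control value. Cpt1a averaged 9.37 ± 1.04 FPKM in YOD1 libraries and 19.9 ± 2.05 FPKM in controls (SD, n = 3 each), a ratio of means of 0.471. It fell by 1.01 on the log2(FPKM + 1) scale, with an SE of 0.14 and a 95% interval from -1.33 to -0.69 (limma adjusted p = 0.0179). In bulk RNA, fewer cells with the transcript and less transcript per cell cannot be told apart. The call rested on a narrow margin: the limma adjusted p was 0.0559 without YOD1 library 1, 0.053 without control 1, 0.105 without control 2 and 0.192 with no filter on low values. The fit that left out YOD1 library 3 gave -0.93 (limma adjusted p = 0.0144). The fold change itself lay between -1.08 and -0.91 under every alternative. The authors' deposited table also marks Cpt1a as lower, with q = 5.68e-06, and Cpt1a is the 1 member of the 36 that it marks. It marks 286 of the 28789 genes, 96 of them lower. The authors' q was under 0.05 for 3 of the 36 members and for 1.97% of all genes.

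**Figure D1:**
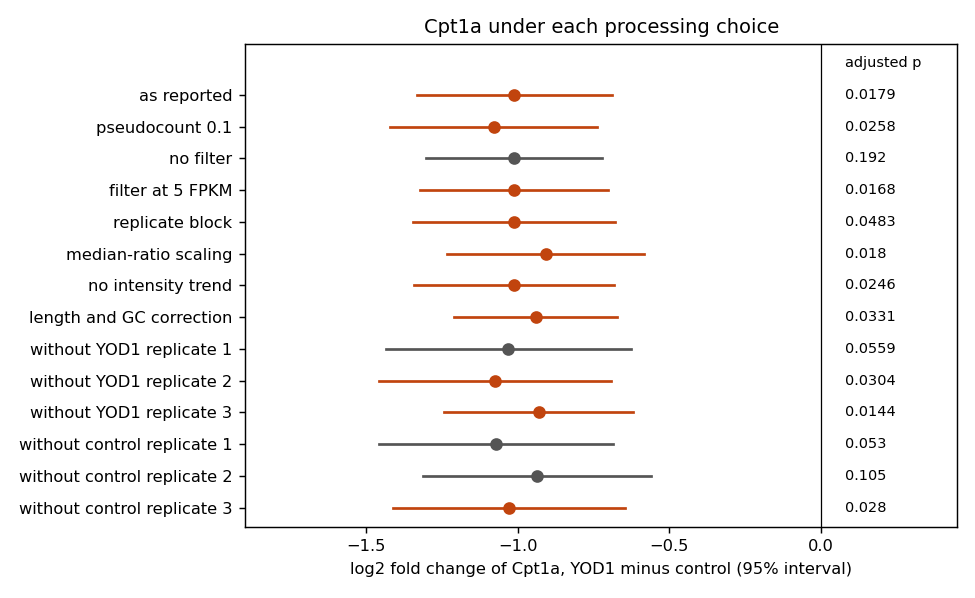
Log2 fold change of Cpt1a, YOD1 minus control, as reported and under each of 13 other processing choices, with 95% limma intervals and the adjusted p on the right. Red marks an adjusted p under 0.05. The fold change stays between -1.08 and -0.91, while the adjusted p runs between 0.0144 and 0.192.

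Neither of the other CPT1 isoforms passed the test. Cpt1c, the isoform of neurons, which lies in the endoplasmic reticulum and has little activity of its own, had 8.44, 9.16 and 13.7 FPKM in YOD1 libraries, against 10.2, 12.3 and 10.3 FPKM in controls. Its groups overlapped because YOD1 library 3 was the highest of all 6, and its log2 fold change was -0.09, with a 95% interval from -0.51 to 0.33 (limma adjusted p = 0.801). Cpt1b, the muscle isoform, was low, with 0.902, 0.370 and 1.63 FPKM in YOD1 libraries, against 1.76, 1.31 and 0.960 FPKM in controls. Those groups overlapped as well, and Cpt1b lies directly beside Chkb, with which reads may be shared (log2 fold change -0.29, interval -0.82 to 0.24, limma adjusted p = 0.487). FPKM is scaled to length, so the isoforms are set side by side here. The shares were not corrected for the length trend between libraries described below. Cpt1a is longer than Cpt1c (4317 against 3261 bases). Cpt1a made up 50.7%, 51.9% and 34.9% of the summed FPKM of the 3 isoforms in YOD1 libraries, against 60.3%, 61.9% and 63.2% in controls, and Cpt1c made up 44.6%, 46.3% and 58.2%, against 33.9%, 34.5% and 33.7%. Cpt1a was thus the leading isoform in all controls and in YOD1 libraries 1 and 2, but Cpt1c led in YOD1 library 3. The summed level of the 3 isoforms was 20.8 ± 2.45 FPKM in YOD1 libraries and 32.2 ± 3.15 FPKM in controls (SD, n = 3 each), with no overlap. With 3 libraries a group the smallest p of an exact permutation test is 0.1, so these ratios are given without one.

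Inside the membrane the picture was less clear. Cpt2, which returns the acyl group to coenzyme A, had 14.7, 16.2 and 13.4 FPKM in YOD1 libraries, against 18.5, 16.8 and 24.8 FPKM in controls. The groups were separate by a small gap, between YOD1 library 2 and control 2 (log2 fold change -0.40, SE 0.16, unadjusted p = 0.0355, limma adjusted p = 0.213). Control 3 was the highest of all 6, and without it the log2 fold change was -0.25. Slc25a20, the translocase, had 3.84, 3.19 and 4.44 FPKM in YOD1 libraries, against 4.30, 4.11 and 5.44 FPKM in controls, with overlap (log2 fold change -0.22, limma adjusted p = 0.462). The ratio of Cpt1a to Cpt2 was 0.634 ± 0.020 in YOD1 libraries and 1.03 ± 0.271 in controls (SD, n = 3 each), and all YOD1 libraries lay below all controls. Crat, the carnitine acetyltransferase that moves acetyl groups between coenzyme A and carnitine, was the member with the second lowest p. It had 7.42, 8.09 and 7.57 FPKM in YOD1 libraries, against 12.4, 13.9 and 11.8 FPKM in controls. The groups were well apart and tight, with a log2 fold change of -0.66 and an SE of 0.14, yet the change did not pass over all genes (limma adjusted p = 0.0759). The authors' deposited table gives Crat q = 0.0253 without marking it, since its log2 fold change there (-0.73) is smaller than the 1 that their mark asks for. Crot, the peroxisomal octanoyltransferase, averaged 2.60 ± 1.12 FPKM in YOD1 libraries and 3.10 ± 0.808 FPKM in controls (SD, n = 3 each), with YOD1 library 3 the lowest at 1.32 FPKM. The 7 genes grouped here as the carnitine shuttle include the peroxisomal Crot and Cpt1c of the endoplasmic reticulum. All 7 were on the lower side in the fit reported (median log2 fold change -0.29). Cpt1c, however, was at 0.015 with median-ratio scaling, and Crot at 0.069 without YOD1 library 3. Of all tested genes 63.6% were on the lower side, and the median of all tested genes was -0.10.

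**Figure D2:**
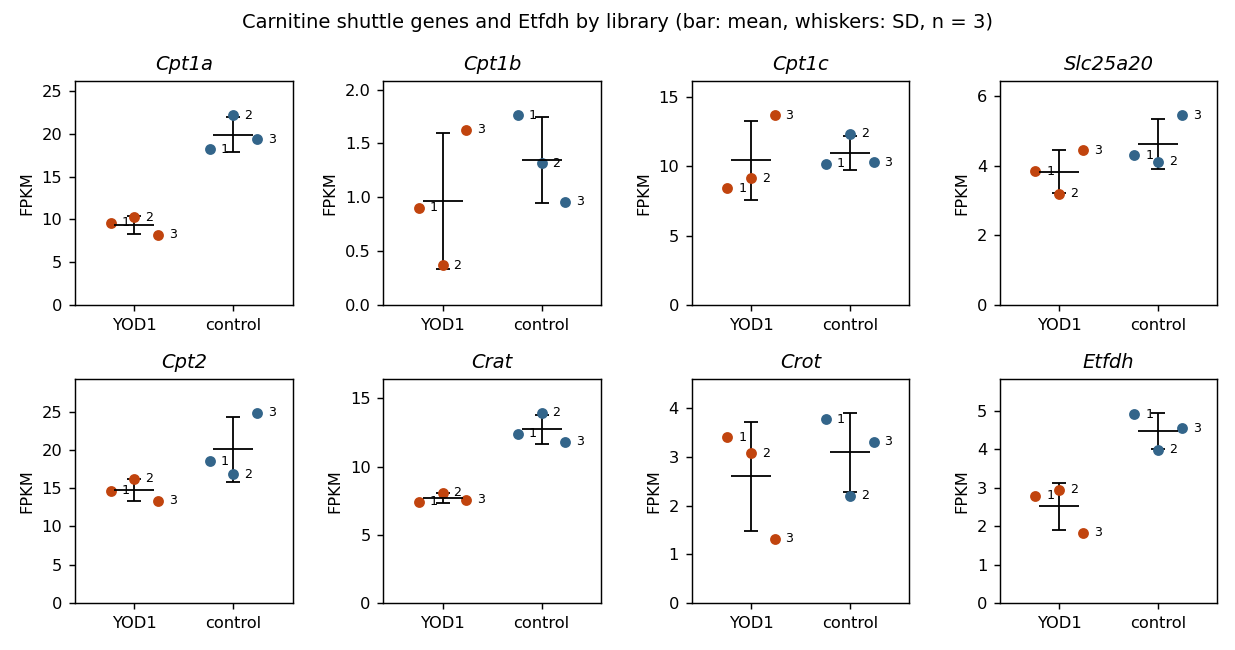
FPKM of the 7 genes grouped as the carnitine shuttle and of Etfdh in each library, with YOD1 libraries on the left and controls on the right of each panel. Points carry the replicate number, the bar is the mean and the whiskers are the SD (n = 3). For Cpt1a, Cpt2, Crat and Etfdh all YOD1 libraries lie below all controls, while the groups overlap for the other genes.

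Sequence upstream of the start site was looked at for the members with the lowest p that have an entry in the promoter table from RefSeq, which covered 29 of the 36 members (Crat has none). The windows run from 250 bases before the start to 50 after it, on build GRCm38.p6, which is not the build named in the submitters' processing notes, and are written 5′ to 3′ on the gene's strand. The lines give Cpt1a (chr19:3323051-3323350, plus strand), Etfdh (chr3:79628718-79629017, minus strand), Acadl (chr1:66863260-66863559, minus strand) and Acadm (chr3:153944594-153944893, minus strand), shown because these 4 had the lowest p-values among members with an entry. Capitals mark the letters GGGCGG (a GC box), CCAAT and AGGTCA (the half-site of nuclear receptors such as PPAR), read on either strand. The Cpt1a window held 3 GC boxes, 1 CCAAT and 1 AGGTCA, Etfdh 1 GC box and 1 CCAAT, Acadl 4 GC boxes, and Acadm 1 AGGTCA.
Cpt1a: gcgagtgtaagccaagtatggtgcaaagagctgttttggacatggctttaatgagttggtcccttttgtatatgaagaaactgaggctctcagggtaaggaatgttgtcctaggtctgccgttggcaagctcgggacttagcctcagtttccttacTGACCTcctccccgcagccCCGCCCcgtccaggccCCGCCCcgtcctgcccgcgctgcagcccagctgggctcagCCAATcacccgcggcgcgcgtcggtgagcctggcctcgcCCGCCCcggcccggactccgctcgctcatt
Etfdh: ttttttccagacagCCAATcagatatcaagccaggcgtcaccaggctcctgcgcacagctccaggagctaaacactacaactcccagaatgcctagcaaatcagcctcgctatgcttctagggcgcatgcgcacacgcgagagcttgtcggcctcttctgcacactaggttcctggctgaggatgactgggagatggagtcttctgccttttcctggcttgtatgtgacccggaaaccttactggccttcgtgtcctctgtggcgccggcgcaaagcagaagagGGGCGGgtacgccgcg
Acadl: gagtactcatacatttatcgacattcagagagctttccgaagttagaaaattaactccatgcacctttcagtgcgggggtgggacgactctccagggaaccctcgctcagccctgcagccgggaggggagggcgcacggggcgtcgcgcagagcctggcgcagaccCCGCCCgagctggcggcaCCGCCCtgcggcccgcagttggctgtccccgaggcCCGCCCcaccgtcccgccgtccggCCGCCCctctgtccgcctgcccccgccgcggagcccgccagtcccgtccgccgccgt
Acadm: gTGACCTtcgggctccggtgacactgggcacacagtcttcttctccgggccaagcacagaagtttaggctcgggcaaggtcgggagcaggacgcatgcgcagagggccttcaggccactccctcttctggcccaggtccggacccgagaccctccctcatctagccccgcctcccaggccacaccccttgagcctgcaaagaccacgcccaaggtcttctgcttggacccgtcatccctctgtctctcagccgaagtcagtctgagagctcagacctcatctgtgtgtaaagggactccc

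Over the 31 windows of matched members, 77.4% held GGGCGG, 48.4% held CCAAT and 16.1% held AGGTCA, against 35.7%, 37.4% and 16.3% of all 32851 windows in the table. All windows were not limited to genes expressed in these cells, so their shares are no matched background. The 5 members with an AGGTCA were Acadm, Acadvl, Cpt1a, Cpt1c and Echs1, of which Cpt1a alone passed the test of expression. A direct repeat of AGGTCA with 1 base between the copies, the element that PPAR binds with its partner RXR, was in 0 of the 31 windows and in 0.0396% of all windows, and TCAAGGTCA, a site of estrogen-related receptors, in 0 and in 0.423%. Both were searched on both strands, and each holds an AGGTCA. These are matches of letters in a short window and do not show binding.

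Acyl-CoA dehydrogenases, which take the first step of the spiral for different chain lengths, split by gene. Acadl, for long chains, had 28.3, 30.7 and 27.1 FPKM in YOD1 libraries, against 34.1, 38.4 and 39.7 FPKM in controls. Acadm, for medium chains, had 7.36, 6.87 and 6.21 FPKM in YOD1 libraries, against 11.0, 8.03 and 9.61 FPKM in controls. In both genes all YOD1 libraries lay below all controls, with log2 fold changes of -0.37 (SE 0.12) and -0.43 (SE 0.16), but neither passed over all genes (limma adjusted p = 0.159 and 0.184). Acadvl, for very long chains, had 72.1, 66.7 and 83.9 FPKM in YOD1 libraries, against 68.9, 65.8 and 73.8 FPKM in controls. Acads, for short chains, had 71.1, 71.6 and 105 FPKM in YOD1 libraries, against 66.8, 80.3 and 80.9 FPKM in controls. Both were among the most abundant members and overlapped between groups, with intervals from -0.20 to 0.38 for Acadvl and from -0.28 to 0.49 for Acads. Acad9, which also helps to assemble respiratory complex I, averaged 8.29 ± 1.19 FPKM in YOD1 libraries and 7.75 ± 0.716 FPKM in controls. Acad10, a less studied relative, averaged 6.20 ± 0.519 and 6.42 ± 0.740 FPKM in YOD1 libraries and controls, and Acad11 stayed under 1 FPKM in all 6 (0.597 ± 0.103 FPKM in YOD1 libraries and 0.730 ± 0.145 FPKM in controls, SD, n = 3 each).

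The later steps of the spiral showed no difference that passed the test. Hadha, the subunit of the trifunctional protein with hydratase and dehydrogenase activity, had 20.2, 18.7 and 17.1 FPKM in YOD1 libraries, against 20.2, 16.4 and 19.3 FPKM in controls. Hadhb, its thiolase subunit, had 7.88, 7.00 and 6.86 FPKM in YOD1 libraries, against 8.04, 5.16 and 7.47 FPKM in controls. Both overlapped between groups, with log2 fold changes of 0.01 (interval -0.30 to 0.31) for Hadha and 0.08 (interval -0.32 to 0.48) for Hadhb. Acaa2, the mitochondrial thiolase for medium chains, had 25.8, 21.2 and 26.8 FPKM in YOD1 libraries, against 28.1, 27.3 and 32.3 FPKM in controls. Here the YOD1 libraries lay just below the controls, without passing (log2 fold change -0.24, limma adjusted p = 0.321, and -0.14 without YOD1 library 2). Hadh, the dehydrogenase for shorter chains, averaged 16.7 ± 2.97 FPKM in YOD1 libraries and 19.6 ± 3.94 FPKM in controls, and Echs1, the short-chain hydratase, 8.82 ± 0.918 and 8.20 ± 1.17 FPKM (SD, n = 3 each). Acot2, a thioesterase that frees fatty acids inside mitochondria, averaged 10.03 ± 0.518 FPKM in YOD1 libraries and 10.8 ± 2.48 FPKM in controls. Acot2 has close relatives next to it in the genome, so its reads may be shared with them.

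The electrons of the first step pass through ETF, a dimer of Etfa and Etfb, to ETF-ubiquinone oxidoreductase, encoded by Etfdh. Etfdh had 2.78, 2.95 and 1.82 FPKM in YOD1 libraries, against 4.91, 3.99 and 4.55 FPKM in controls. All YOD1 libraries were lower than all controls, with YOD1 library 3 lowest, and the ratio of means was 0.562. The log2 fold change was -0.65 with an SE of 0.18 and an interval from -1.05 to -0.25, and it did not pass over all genes (limma adjusted p = 0.118). The authors' deposited table gives Etfdh q = 0.0178 and does not mark it. Etfb was the most abundant of the 36 members, with 101, 87.0 and 134 FPKM in YOD1 libraries, against 89.7, 95.7 and 91.9 FPKM in controls. Etfa averaged 27.3 ± 5.56 FPKM in YOD1 libraries and 31.7 ± 3.22 FPKM in controls (SD, n = 3 each). Neither dimer gene separated the groups, with log2 fold changes of 0.19 for Etfb (-0.014 after correction for transcript length and GC content) and -0.22 for Etfa. Without YOD1 library 3, the highest of all 6 for Etfb and the lowest for Etfa, these were 0.018 and -0.051.

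None of the 3 enzymes for unsaturated chains passed the test. Decr1, the dienoyl-CoA reductase, averaged 5.20 ± 0.521 FPKM in YOD1 libraries and 4.37 ± 0.210 FPKM in controls, with all YOD1 libraries above all controls (log2 fold change 0.20, limma adjusted p = 0.427). Eci1, an enoyl-CoA isomerase, averaged 26.2 ± 0.495 FPKM in YOD1 libraries and 22.4 ± 3.56 FPKM in controls (SD, n = 3 each). Its relative Eci2 averaged 8.86 FPKM in YOD1 libraries and 9.48 FPKM in controls, with a log2 fold change of -0.09 and an interval from -0.46 to 0.29. Both isomerases overlapped between groups.

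In the peroxisomal route, 4 of 5 members were tested and 0 passed by limma, either adjusted or at an unadjusted p of 0.05. Pex5, the receptor that carries enzymes into peroxisomes, averaged 21.7 ± 0.781 FPKM in YOD1 libraries and 26.6 ± 2.99 FPKM in controls (SD, n = 3 each), without overlap (log2 fold change -0.28, limma adjusted p = 0.257). Acox3, an oxidase for branched chains, averaged 3.29 ± 0.728 and 4.17 ± 0.654 FPKM in YOD1 libraries and controls. Hsd17b4, the D-bifunctional protein, averaged 28.0 ± 3.26 FPKM in YOD1 libraries and 29.9 ± 2.99 FPKM in controls. Acaa1a, the peroxisomal thiolase, averaged 15.7 ± 2.51 FPKM in YOD1 libraries and 16.1 ± 1.71 FPKM in controls. It has a near-identical relative, Acaa1b, so reads may be split between them. Ehhadh, the L-bifunctional enzyme and a known PPAR alpha target, stayed below 1 FPKM in every library.

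**Figure D3:**
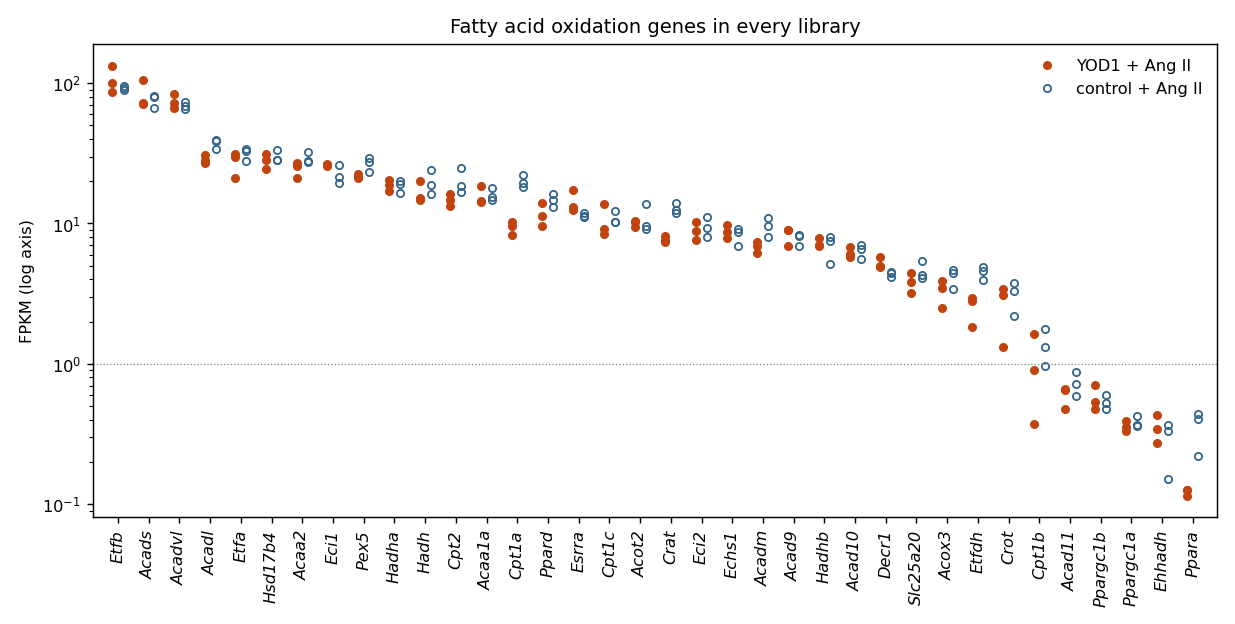
FPKM of all 36 members in every library on a log axis, ordered by mean level, with YOD1 libraries as filled red points and controls as open blue points. The dotted line is 1 FPKM. Etfb, Acads and Acadvl stand highest, and Acad11, Ppargc1b, Ppargc1a, Ehhadh and Ppara lie under the line in all libraries.

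Among the regulators the receptor for which the pathway is best known was nearly absent. Ppara had 0.115, 0.125 and 0.127 FPKM in YOD1 libraries, against 0.439, 0.222 and 0.404 FPKM in controls. It was the lowest of the 36 members, and the groups did not overlap, but at this level it was not tested, and the authors' deposited table gives it q = 0.157. Ppargc1a, the PGC-1 alpha coactivator, had 0.334, 0.354 and 0.392 FPKM in YOD1 libraries, against 0.422, 0.364 and 0.361 FPKM in controls, and Ppargc1b had 0.531, 0.712 and 0.479 FPKM, against 0.526, 0.603 and 0.480 FPKM. Both overlapped between groups. Ppard, the PPAR delta receptor, was expressed far above Ppara, with 9.63, 11.4 and 13.9 FPKM in YOD1 libraries, against 13.0, 16.2 and 14.6 FPKM in controls (log2 fold change -0.31, limma adjusted p = 0.293). Esrra, the estrogen-related receptor alpha that works with PGC-1, had 12.4, 13.2 and 17.4 FPKM in YOD1 libraries, against 11.3, 11.1 and 11.9 FPKM in controls. All YOD1 libraries were higher, with a log2 fold change of 0.29 and an SE of 0.15 that did not pass (limma adjusted p = 0.302), and it was 0.15 without YOD1 library 3.

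Over the members as a set, 1 of 31 tested was called lower and 0 higher by limma over all genes, against the shares of 0.0348% and 0.444% of all tested genes given above. The call was Cpt1a, which was chosen with its result known, so this count is no result about the set. At an unadjusted p under 0.05, 6 members were lower, 19.4% of the 31, against 13.0% of all tested genes, and 0 were higher, against 7.87%. Those 6 were Cpt1a, Crat, Etfdh, Acadl, Acadm and Cpt2. All YOD1 libraries lay below all controls in 8 of 31 members (25.8%, against 19.1% of all tested genes) and above them in 2 (6.45%, against 9.77%). A log2 fold change below 0 was seen in 21 members, 67.7%, against 63.6% of all tested genes. The median log2 fold change of the members was -0.09, and that of all tested genes -0.10, so the members' median lay close to that of all genes. The 95% interval stayed within 0.5 on either side of 0 for 11 members and within 1 for 29, all but Cpt1a and Etfdh. The summed FPKM of the 36 members was 616 ± 51.0 in YOD1 libraries and 643 ± 17.7 in controls (SD, n = 3 each), with overlap.

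**Figure D4:**
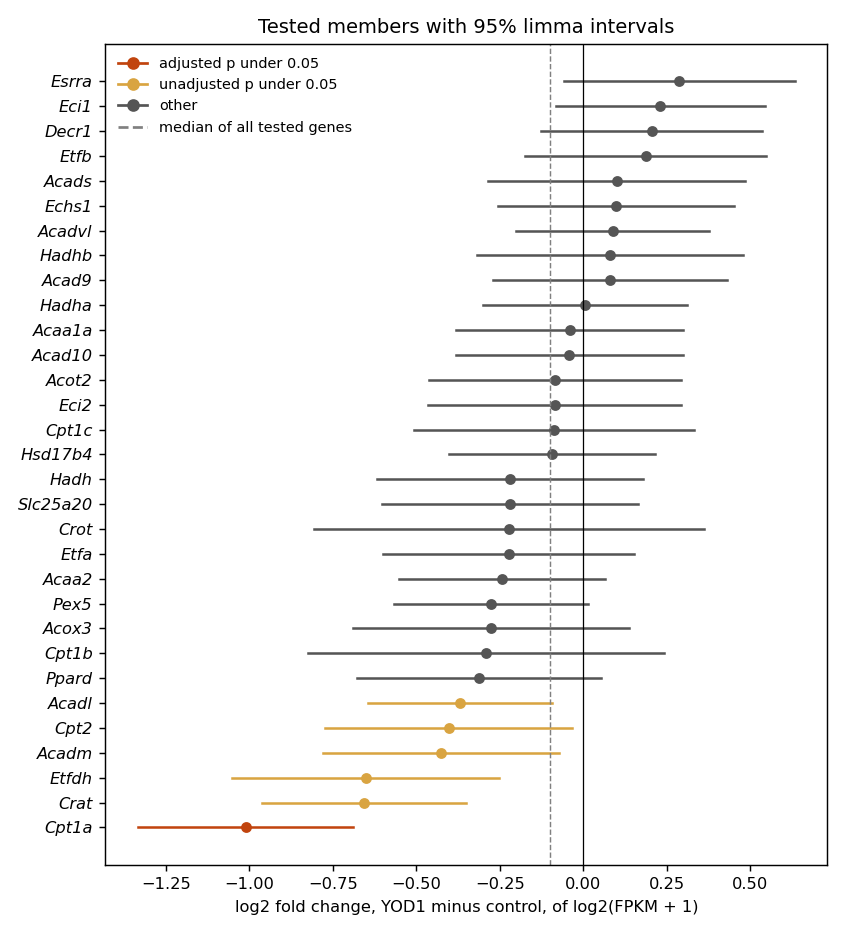
Log2 fold change of the 31 tested members, YOD1 minus control, with 95% limma intervals. Red marks an adjusted p under 0.05, yellow an unadjusted p under 0.05, and the dashed line is the median of all tested genes at -0.10. Cpt1a lies at -1.01, and the other intervals reach from -1.05 for Etfdh to 0.63 for Esrra.

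Fold change went with transcript length in these libraries. Over all tested genes the Spearman correlation of length and log2 fold change was -0.40, and over the 31 members it was -0.16, as a description across genes that share libraries. The members had a median length of 2959 bases, against 3018.5 for all tested genes, and Cpt1a, Crat and Etfdh lay above it with 4317, 4224 and 3740 bases. After correction of each library for length and GC content, Cpt1a stood at -0.94 (limma adjusted p = 0.0331), Crat at -0.58, Etfdh at -0.52, Acadm at -0.48, Cpt2 at -0.47 and Acadl at -0.39.

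The genes around the pathway were read from 9 further lists, with 118 different tested genes outside the members. By limma 0 of them passed over all genes in either direction. At an unadjusted p under 0.05, 30 were lower (25.4%, against 13.0% of all tested genes) and 3 were higher (2.54%, against 7.87%). Their median log2 fold change was -0.19, against -0.10 for all tested genes. It was -0.13 without YOD1 library 3 (all tested genes -0.051) and -0.16 after the length and GC correction (all tested genes -0.089). With median-ratio scaling it was -0.094 (all tested genes -0.008).

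Fatty acid uptake, binding and activation had 14 tested genes, 13 of them on the lower side, where 63.6% of all tested genes lay. The median log2 fold change was -0.42, against -0.10 for all tested genes. After the length and GC correction these medians were -0.32 and -0.089. At an unadjusted p under 0.05, 8 were lower (57.1%, against 13.0% of all tested genes). Acsl4, a long-chain acyl-CoA synthetase that prefers arachidonic acid, had 3.33, 3.70 and 1.97 FPKM in YOD1 libraries, against 5.58, 5.37 and 5.72 FPKM in controls (log2 fold change -0.74, limma adjusted p = 0.115). Dbi, the acyl-CoA binding protein, averaged 21.1 ± 3.63 FPKM in YOD1 libraries and 32.1 ± 3.98 FPKM in controls. The fatty acid transport proteins Slc27a4 and Slc27a1 averaged 29.2 ± 3.28 and 12.1 ± 1.44 FPKM in YOD1 libraries, against 42.6 ± 8.71 and 16.9 ± 1.44 FPKM in controls. Acbd5, a peroxisomal tether, averaged 0.733 ± 0.157 FPKM in YOD1 libraries and 1.36 ± 0.125 FPKM in controls. In each of these 5 genes, named for their low p-values, all YOD1 libraries lay below all controls. Over the list this held for 8 of 14 tested genes (57.1%, against 19.1% of all tested genes). Fabp5, an intracellular fatty acid carrier, went the other way, with 17.5 ± 2.71 FPKM in YOD1 libraries and 11.1 ± 3.03 FPKM in controls (log2 fold change 0.64, limma adjusted p = 0.139). Its muscle-type relative Fabp3 had 1.13, 0.932 and 10.9 FPKM in YOD1 libraries, against 13.0, 10.1 and 7.87 FPKM in controls. YOD1 library 3 stood with the controls there, and without it the log2 fold change was -2.46 (limma adjusted p = 0.000509), against -1.61 with it (limma adjusted p = 0.178). The fit without that library is quoted because of this gene's own values, so its p is no independent support. Over all genes that fit called 107 higher and 25 lower, against 51 and 4 with all 6 libraries.

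CPT1 is held back by malonyl-CoA, which acetyl-CoA carboxylase makes and which the kinase AMPK lowers by acting on that enzyme. Of 14 tested genes of this control, 12 were on the lower side, where 63.6% of all tested genes lay. The median log2 fold change was -0.27, against -0.10 for all tested genes. Acaca had 2.43, 3.22 and 1.41 FPKM in YOD1 libraries, against 5.81, 5.85 and 3.80 FPKM in controls, and Acacb, the carboxylase placed at mitochondria, had 1.67, 1.84 and 2.38 FPKM, against 2.94, 3.97 and 3.01 FPKM. Both carboxylases lay below all controls in all YOD1 libraries, with log2 fold changes of -0.90 and -0.54 that did not pass (limma adjusted p = 0.115 and 0.145). Such separation was seen in 8 of the 14 tested genes (57.1%, against 19.1% of all tested genes). Both transcripts are long, at 9513 and 8788 bases, and their values after the length and GC correction were -0.69 and -0.36. The AMPK subunit Prkaa2 (log2 fold change -0.49) and Strada, a partner of the AMPK kinase LKB1 (-0.36), also had an unadjusted p under 0.05. With the carboxylases 4 genes were lower at that level (28.6%, against 13.0% of all tested genes) and 0 higher. After the length and GC correction Prkaa2 stood at -0.22 and Strada at -0.24. Of the 4 tested genes of carnitine supply, 0 had an unadjusted or adjusted p under 0.05 by limma.

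Peroxisomal genes outside the members had a median of -0.16 over 25 tested genes, against -0.10 for all tested genes. Of the 25, 15 were below 0 and 10 above, where 63.6% of all tested genes lay below 0. The median was -0.068 without YOD1 library 3 (all tested genes -0.051) and -0.074 with median-ratio scaling (all tested genes -0.008). Cat, the catalase that removes hydrogen peroxide in peroxisomes, had 19.0, 20.8 and 14.0 FPKM in YOD1 libraries, against 29.7, 29.6 and 31.3 FPKM in controls (log2 fold change -0.74, limma adjusted p = 0.0783). Abcd4 (-0.49), Hacl1, a lyase of branched-chain breakdown (-0.48), Pex11a, a factor of peroxisome division (-0.44), and Phyh, the phytanoyl-CoA hydroxylase (-0.39), likewise had all YOD1 libraries below all controls. They were named for their low p-values. Over the list this held for 10 of 25 tested genes (40%, against 19.1% of all tested genes). Acot8, a peroxisomal thioesterase picked out after its values were seen, was the 1 gene of the list that was higher at an unadjusted p under 0.05, averaging 31.8 ± 5.37 FPKM in YOD1 libraries and 24.2 ± 0.215 FPKM in controls (SD, n = 3 each). Its groups did not overlap, and the limma adjusted p was 0.196 at a log2 fold change of 0.37. The list named other mitochondrial acyl-CoA steps, which also holds genes of other compartments, had a median of -0.09, against -0.10 for all tested genes. It was -0.011 without YOD1 library 3 and -0.0053 with median-ratio scaling, against -0.051 and -0.008 for all tested genes. Acot13 (-0.46), Echdc1 (-0.44) and Decr2 (-0.33) were lower at an unadjusted p under 0.05 (14.3%, against 13.0% of all tested genes). Acsbg1 (0.85) was higher (4.76%, against 7.87%). Acsbg1, a synthetase of very long acyl-CoA, had 6.66, 8.24 and 8.75 FPKM in YOD1 libraries, against 2.44, 2.60 and 8.57 FPKM in controls. Control 3 stood with the YOD1 libraries there, and without it the log2 fold change was 1.33 (limma adjusted p = 0.0162), against 0.85 with it (limma adjusted p = 0.214). The fit without control 3 is quoted because of this gene's own values, so its p is no independent support. Over all genes that fit called 145 higher and 97 lower, against 51 and 4 with all 6 libraries.

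PPAR target genes outside the members had a median of -0.29 over 11 tested genes, against -0.10 for all tested genes. In the lower direction 3 had an unadjusted p under 0.05 (27.3%, against 13.0% of all tested genes), Fabp3 and Pex11a among them. In the higher direction 0 did, against 7.87%. Angptl4, an inhibitor of lipoprotein lipase that was picked out after its values were seen, had 9.85, 11.3 and 9.05 FPKM in YOD1 libraries, against 3.27, 3.46 and 14.6 FPKM in controls. Control 3 was the highest of all 6, and without it the log2 fold change was 1.34 (limma adjusted p = 0.0141), against 0.72 with it (limma adjusted p = 0.332). The fit without control 3 is quoted here and below because of these genes' own values, so its p-values are no independent support. Over all genes that fit called 145 higher and 97 lower, against 51 and 4 with all 6 libraries. Control 3 also stood with the YOD1 libraries in Aacs, the acetoacetyl-CoA synthetase, which had 48.9, 44.8 and 46.6 FPKM in YOD1 libraries, against 112.9, 117 and 45.3 FPKM in controls. Lpin1, a phosphatidate phosphatase that also acts with PGC-1 alpha, averaged 1.27 ± 0.215 FPKM in YOD1 libraries (SD, n = 3), against 5.65, 6.81 and 1.89 FPKM in controls (log2 fold change -1.23, limma adjusted p = 0.115). Without control 3 it was -1.67 (limma adjusted p = 0.00981), and Aacs was -1.28 (limma adjusted p = 0.00787), against -0.84 with it (limma adjusted p = 0.181). Cpt1a did not share this pattern, since its value in control 3 lay between those of the other controls.

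Coregulators and partners of the receptors had a median of -0.08 over 20 tested genes, against -0.10 for all tested genes. It was 0.012 after the length and GC correction (all tested genes -0.089) and 0.010 with median-ratio scaling (all tested genes -0.008). Besides Lpin1, the orphan receptor Nr4a1 (-0.72), the acetyltransferase Ep300 (-0.74), the corepressor Ncor1 (-0.61), the factor Gabpa (-0.53) and Rxra, the partner of PPAR (-0.35), had an unadjusted p under 0.05. These 6 were 30% of the list, against 13.0% of all tested genes in the lower direction, and 0 were higher. After the length and GC correction Nr4a1 stood at -0.78, Ep300 at -0.55, Ncor1 at -0.40, Gabpa at -0.33 and Rxra at -0.26. Nr4a1 had a limma adjusted p of 0.0307 without control 3, against 0.151 with it, in a fit likewise quoted because of this gene's own values. Genes of lipolysis and lipid droplets had a median of -0.22 over 10 tested genes, against -0.10 for all tested genes. Pnpla2, the triglyceride lipase ATGL (-0.42), and the droplet coat gene Plin3 (-0.43) had an unadjusted p under 0.05. They were 20% of the list, against 13.0% of all tested genes in the lower direction. Of 5 tested genes of ketone body metabolism, 2 were below 0 and 3 above, where 63.6% of all tested genes lay below 0. Aacs had an unadjusted p under 0.05.

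**Figure D5:**
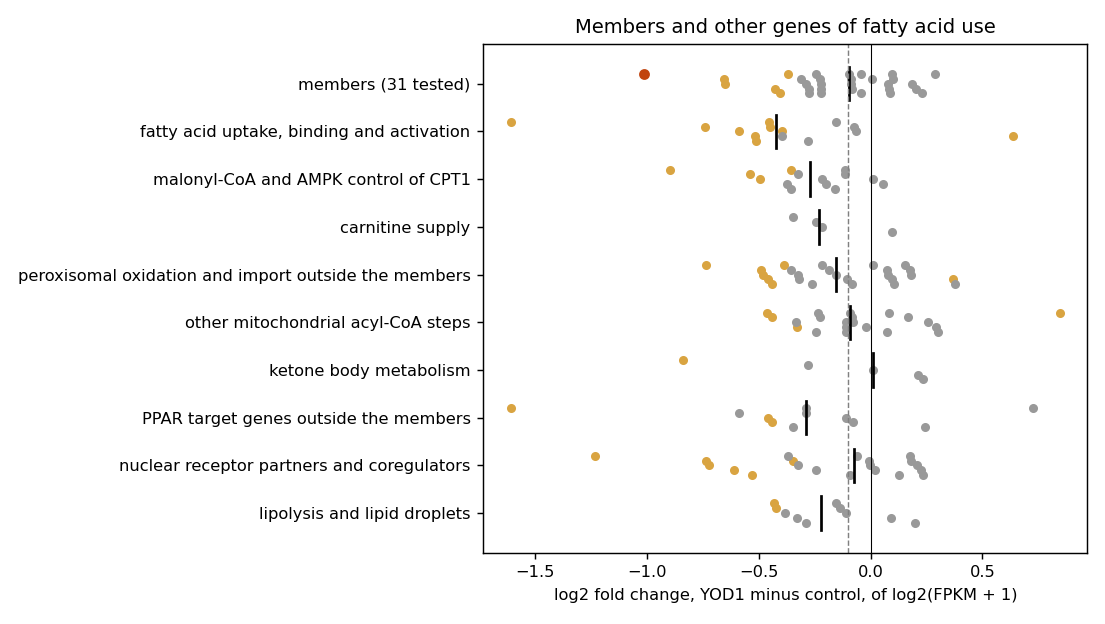
Log2 fold change, YOD1 minus control, of the 31 tested members and of the tested genes in 9 further lists, one point a gene, with the median of each list as a black bar. A gene may stand in more than 1 list. Red marks an adjusted p under 0.05, yellow an unadjusted p under 0.05, grey the rest, and the dashed line is the median of all tested genes at -0.10. Cpt1a is the one red point, and fatty acid uptake, binding and activation has the lowest list median at -0.42.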

How the data were processed

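Poly(A) RNA of 6 TCMK1 samples was sequenced in paired ends, per the labels' protocols, with no strand stated, so reads where genes overlap may belong to either. The single table that the authors deposited gives FPKM for each gene in each library, per the file headers. Its other columns, per the file headers, are the authors' ratio of group means, that ratio as log2, a p-value, a q-value and a mark of significance. The submitters' processing notes list Bowtie 0.12.2, HISAT2 2.0, StringTie 1.3.0 and mm8 without saying what each was used for. Genes marked by the authors have q under 0.05 and a log2 ratio of 1 or more in size, with 0 departures. Columns of per-sample values left unused numbered 0.

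The 11483 of 28789 genes that reached 1 FPKM in 3 or more libraries went through limma (version 3.58.1, R 4.3.3) on log2(FPKM + 1), with an intensity trend, two-sided, with Benjamini-Hochberg adjustment over all tested genes at 0.05. The script was tested on simulated data. Members, lists and tests were chosen with earlier results of these data known. Per-library values are given for members with an adjusted or unadjusted p under 0.05 and for 18 members chosen by role, and other lists have up to 6 genes named, those with the lowest unadjusted p under 0.05, by libraries, means or fold changes. Lengths and GC content came from the longest GENCODE M21 transcript (99.2% of tested genes, all 31 tested members). Alternatives were another pseudocount, filter, scaling and variance model, a length and GC correction, a replicate block and each library left out. Python 3.11.15 was used for summaries. Values of 2 genes of the lists are not reported here.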

Additional observations from a re-analysis of the deposited data

How the results depend on the processing

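Cpt1a kept its direction under all 13 alternatives and its call under 6 of the 7 that keep all libraries. With no filter on low values, which raises the number of tested genes to 28789, its log2 fold change was -1.01 without a call (limma adjusted p = 0.192), and 0 members and 0 genes of either direction were called over all genes. When 1 library was left out it lay between -1.07 and -0.93, called in 3 of 6 fits, so the members called lower numbered 0 to 1. Over all genes, 51 higher and 4 lower calls became 33 and 8 with the replicate number as a block, where Cpt1a was still called (limma adjusted p = 0.0483), 160 and 9 with median-ratio scaling, and 14 and 6 with the length and GC correction (70% higher in place of 92.7%). Leaving out 1 library gave 17 to 145 higher and 1 to 97 lower calls, with 145 and 97 without control 3, 107 and 25 without YOD1 library 3, 30 and 1 without control 1, 17 and 2 without control 2, and 40 and 1 without YOD1 library 1. The genes of the further lists had 0 to 2 higher and 0 to 3 lower calls in those fits. The replicate block changed no call among the members. The correlations of same-numbered libraries, as deviations from group means, were 0.30, -0.12 and -0.11. Those of different-numbered libraries ran from -0.41 to 0.34. With 3 libraries a group, these values cannot decide whether the samples were paired.

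The median of the members was 0.013 with median-ratio scaling (all tested genes -0.008), -0.15 with the length and GC correction (all tested genes -0.09), and between -0.19 and -0.055 when 1 library was left out. Small fold changes changed sign in 13 of 31 members, none of them called in any fit. With median-ratio scaling Cpt1c was at 0.015, Acad10 at 0.055, Acot2 at 0.017, Eci2 at 0.015, Hsd17b4 at 0.013 and Acaa1a at 0.064. With the length and GC correction Acads was at -0.056, Acad10 at 0.052 and Etfb at -0.014. Leaving out 1 library gave Cpt1c -0.28 to 0.036, Crot -0.39 to 0.069, Acadvl -0.0029 to 0.16, Acads -0.085 to 0.20, Acad10 -0.12 to 0.019, Hadha -0.078 to 0.064, Hadhb -0.088 to 0.19, Echs1 -0.011 to 0.17, Acot2 -0.18 to 0.081, Eci2 -0.19 to 0.029 and Acaa1a -0.16 to 0.038. Why calls ended was not tested. FPKM carries no depth, so no counting error can be given.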
